A study of Mus musculus with 12 samples.

Results

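The genes described here encode the proteins of the cytosolic ribosome. They were chosen by name among the protein-coding rows of the table, as *Rpl* or *Rps* followed by a number with at most a short suffix (a, x, l or l1), together with *Rpsa*, *Rplp0*, *Rplp1* and *Rplp2*; the *Rps6k* kinases were left out. This gave 80 genes of 16971, of which 31 belong to the small and 49 to the large ribosomal subunit. They lay on 19 chromosomes, with 14 of them on chromosome 7.

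The RNA came from GFP+ cells sorted from the nonparenchymal liver fraction of adult C57BL/6 *Prom1*CreERT2-nLacZ/+;*Rosa26*Lsl-GFP/+ mice. All groups carried both alleles and received tamoxifen 7 days before, so that Cre driven from the *Prom1* locus switched on GFP permanently in cells that expressed *Prom1* at that time and in their descendants. The groups were day 0 (a sham label, with no ligation), BDL day 3 and BDL day 14, where BDL is bile duct ligation, an operation that blocks bile flow and causes cholestatic injury. The labels name 3, 3 and 6 libraries, and the table rests on 3, 3 and 4 of them. Only 1 mean per group is given, without the separate libraries. No test was run on these means, they carry no SD, and the ratios below are descriptions. Both sexes were used, in proportions that differed between groups.

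A ribosome joins a small subunit, which threads and decodes the mRNA, to a large subunit, which links amino acids and lets the new chain out through a tunnel. Most of the proteins are needed in equal numbers, and most vertebrate mRNAs for them begin with a C followed by a run of pyrimidines, the 5′ terminal oligopyrimidine (TOP) tract. Through this tract the kinase complex mTORC1 and the RNA-binding protein LARP1 adjust how much of these mRNAs is translated and stored, so that an mRNA level is not a rate of protein synthesis. Some ribosomal proteins also act outside the ribosome, for example by binding MDM2, the ubiquitin ligase of p53.

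RefSeq promoter sequence on GRCm38.p6 was at hand for 60 of the 80 genes. The windows shown run from 40 bases before to 20 bases after an annotated RefSeq start, on the strand of the gene, with CTTTC and CTTTT in capitals, the letters searched as a simple form of the pyrimidine tract. The first 6 genes are among those with the larger BDL day 14 means relative to day 0, and the last 3 are among those with the least difference.

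Rplp0: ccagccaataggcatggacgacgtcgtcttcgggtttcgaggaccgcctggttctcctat
Rps4x: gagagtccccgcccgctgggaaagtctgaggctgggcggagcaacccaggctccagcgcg
Rps7: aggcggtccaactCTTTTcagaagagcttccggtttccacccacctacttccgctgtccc
Rps2: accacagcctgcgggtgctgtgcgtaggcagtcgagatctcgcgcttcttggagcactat
Rpl5: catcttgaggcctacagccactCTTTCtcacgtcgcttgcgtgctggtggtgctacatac
Rpl4: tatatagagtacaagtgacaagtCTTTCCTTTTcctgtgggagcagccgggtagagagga
Rpl28: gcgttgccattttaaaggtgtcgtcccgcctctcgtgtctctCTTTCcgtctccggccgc
Rpl27a: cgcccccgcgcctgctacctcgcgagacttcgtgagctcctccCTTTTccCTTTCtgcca
Rpl39: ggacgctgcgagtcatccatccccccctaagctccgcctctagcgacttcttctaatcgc

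They come from chr5:115559427-115559486 (+), chrX:102189372-102189431 (-), chr12:28635934-28635993 (-), chr17:24720023-24720082 (+), chr5:107900488-107900547 (+), chr9:64173347-64173406 (+), chr7:4792925-4792984 (+), chr7:109519155-109519214 (+) and chrX:37085203-37085262 (-), in that order. CTTTC or CTTTT stood in this 60-base window in 26 of the 60 genes (43.3%), against 16.3% of 27025 genes with a promoter entry. The 6-letter core CGGAAG, bound by ETS factors, stood on either strand of the 300-base promoter in 40 of the 60 genes (66.7%), against 18.8% of all genes. TATAAA, searched in the same promoters on both strands, stood in 7 (11.7%), against 15.7% of all genes. Both kinds of gene shown above included windows with and without the tract. Of the 22 matched genes that were more than 1.5-fold higher at BDL day 14 than at day 0, 6 held CTTTC or CTTTT, against 20 of the other 38. A match of letters is a description, since annotated starts often lie some bases from the true start.

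Ribosomal protein mRNAs were among the most abundant in the cells. Levels are the authors' group means in upper-quartile normalised counts, and 79 of the 80 genes passed a filter of 10 summed normalised counts over the 10 libraries. Of those 79, 76 were among the 500 highest genes of the table in every group, and 29, 18 and 36 were among the 100 highest at day 0, BDL day 3 and BDL day 14. The median level was 664, 725 and 946 normalised counts in that order, and the range at day 0 ran from 54.9 to 1490. The gene that did not pass was *Rpl3l*, the striated muscle counterpart of *Rpl3*, with means of 0.128, 1.03 and 0.548. Its day 0 value was the lowest mean that group holds for any gene, and no ratio is given for it.

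The 3 group means of most genes stood in the order day 0, BDL day 3, BDL day 14. This order was found for 52 of the 79 genes (65.8%), against 18.7% of all 12891 genes kept and 27.5% of the 902 with a mean of at least 100. BDL day 14 held the highest mean for 67 genes, and BDL day 3 for 11, among them *Rpl12*, *Rpl19*, *Rplp1*, *Rps2* and *Rps29*. Day 0 held it only for *Rpl39*. The 5 genes nearest the median pattern, by the distance of their 2 log2 ratios to day 0 over the 3 group means, were *Rpl35*, *Rps16*, *Rpl15*, *Rps18* and *Rpl11*. *Rpl35*, the nearest, had 563, 644 and 736 normalised counts.

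**Figure D1:**
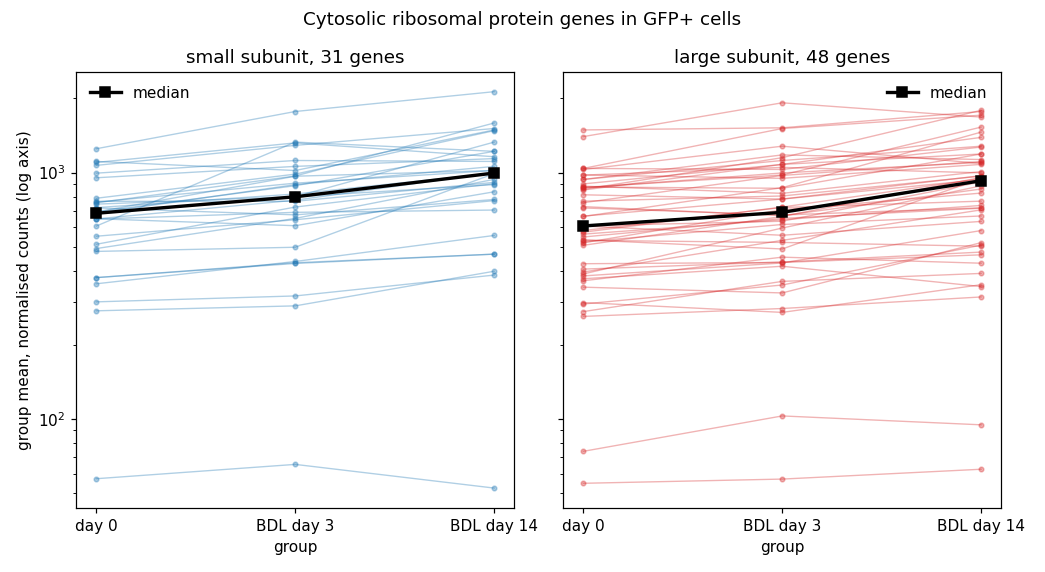
Group means in normalised counts (log axis) of the 31 small and 48 large subunit genes kept, 1 thin line per gene, with the median of each subunit in black. Of the 79 lines, 52 rise at each step, 14 are lowest at BDL day 3 and 11 are highest there. The medians go from 684 to 996 in the small and from 607.5 to 927 in the large subunit between day 0 and BDL day 14, and 3 genes (*Rps27l*, *Rpl22l1* and *Rpl7l1*) lie far below the rest.

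Of all signal in a group, the genes together took 5.66% (day 0), 7.23% (BDL day 3) and 9.99% (BDL day 14). Both parts of this share moved: the summed level of the genes was 1.41-fold higher at BDL day 14 than at day 0, while the sum over all genes was 0.797 of its day 0 value. The 10 most abundant genes alone held 32.3% of the sum at day 0 but 21.1% at BDL day 14, and without each group's 10 the share was 8.36%, 9.03% and 12.7%. The summed level of the small subunit divided by that of the large was 0.661, 0.691 and 0.710.

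At BDL day 3 the genes differed little from day 0. Of the 79, 63 had a higher mean, with a median log2 ratio of 0.20, against -0.02 over all genes kept and 0.48 over the 826 other genes with a mean of at least 100. Past 1.5-fold, 2 were higher and none lower, when 19.2% of all genes kept were higher and 29.2% lower. The low count is read beside the narrow range of these genes, from -0.13 to 1.13. When the 3 groups were quantile normalised, the median turned to -0.21 and only 10 of the 79 lay above 0, with 1 past 1.5-fold higher and 1 lower, while the median of all genes kept went to 0.12. The direction at BDL day 3 thus depends on how the groups are scaled.

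*Rps2* stood apart at BDL day 3. It encodes a protein at the mRNA entry channel (chromosome 17, 24718116 to 24721929, plus strand), and its means were 607, 1330 and 1220 normalised counts, with 1650 in its highest library. The log2 ratio was 1.13 at BDL day 3 (approximate SE 0.31) and 1.01 at BDL day 14. Its pseudogenes, which can share its reads, stood at 23.5% of its level at day 0 and 6.57% at BDL day 3. The approximate SE is derived from the gap between the arithmetic and geometric means over all libraries and assumes 1 relative spread in all groups. The paper describes its BDL day 14 replicates as more variable than those of day 0, so this assumption may not hold. The approximate SE may then be too small for the BDL day 14 means. *Rps2* was the only ribosomal protein gene past both 1.5-fold and 2 approximate SE at BDL day 3. That mark was passed by 16.9% of the 7293 genes with a mean of at least 10. It was also passed by 316 of the 826 other genes with a mean of at least 100. The other ribosomal protein gene past 1.5-fold was *Rpl10a*, at 0.62 (approximate SE 0.36). After these came *Rpl10*, at 0.54, then *Rps19* and *Rpsa*, both at 0.50. The lowest ratios were -0.13 in *Rpl36a* and -0.12 in *Rpl5*, *Rpl35a*, *Rps24* and *Rpl23*, all within 1 approximate SE of 0.

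At BDL day 14 the shift covered nearly the whole set. The mean was higher than at day 0 for 76 of the 79 genes, with a median log2 ratio of 0.40 (0.48 in the small and 0.37 in the large subunit), against -0.04 over all genes kept and 0.28 over the 826 other abundant genes. Past 1.5-fold, 27 were higher (34.2%) and none lower, when 21.2% of all genes kept were higher and 28.8% lower. Among the other abundant genes 32.4% were higher, close to the share of the ribosomal protein genes, and 17.9% were lower. Past both 1.5-fold and 2 approximate SE there were 17. That mark was passed by 18.2% of genes with a mean of at least 10 and by 245 of the 826 other abundant genes. The 17 were *Rpl3*, *Rpl4*, *Rpl5*, *Rpl6*, *Rpl8*, *Rpl10*, *Rpl10a*, *Rpl18*, *Rplp0*, *Rps2*, *Rps3*, *Rps4x*, *Rps6*, *Rps7*, *Rps9*, *Rps27a* and *Rpsa*. Quantile normalisation left 60 of the 79 above 0, with a median of 0.17 against 0.10 over all genes kept, and 12 past 1.5-fold. Set beside other abundant genes, the set differed in its narrow spread and its near lack of lower values rather than in how often 1.5-fold was passed.

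**Figure D2:**
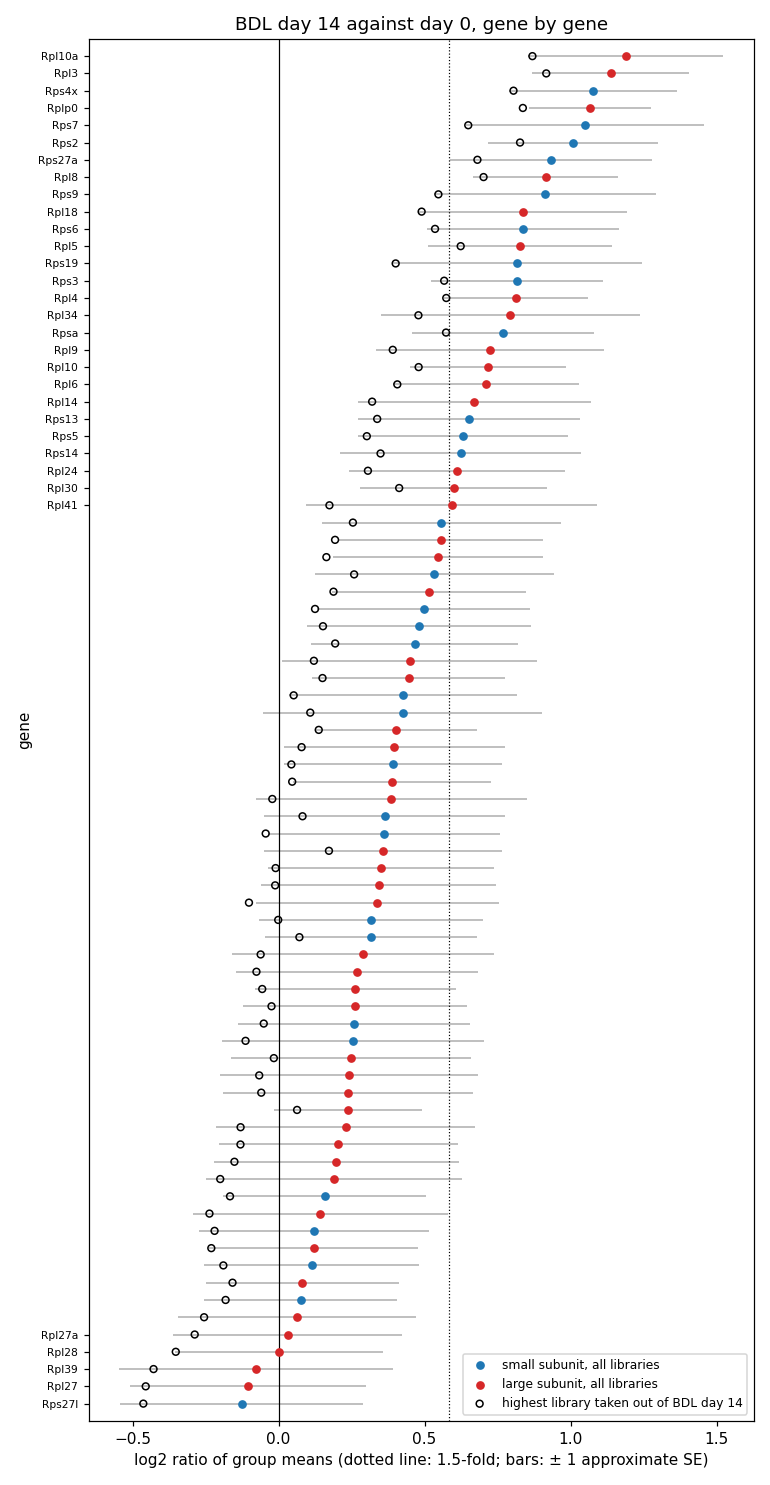
Log2 ratio of the BDL day 14 to the day 0 mean for each of the 79 genes (filled points, blue for the small and red for the large subunit; bars ± 1 approximate SE; dotted line 1.5-fold), with open circles for the ratio after the highest library is taken out of BDL day 14. Names are given for the genes past 1.5-fold and the 5 lowest. The filled points run from -0.13 in *Rps27l* to 1.19 in *Rpl10a*, and the open circles lie lower in every gene, with 47 above 0.

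The larger ratios at BDL day 14 fell on proteins of several ribosomal regions. *Rpl10a*, a large subunit protein at the L1 stalk, through which spent tRNA leaves (chromosome 17, 28328471 to 28331033, plus strand), had means of 388, 596 and 884 normalised counts and 1410 in its highest library, a log2 ratio of 1.19 (approximate SE 0.33). *Rpl3*, which reaches towards the peptidyl transferase centre (chromosome 15, 80077791 to 80091868, minus strand), had 664, 869 and 1460, with 2080 in the highest library, a ratio of 1.14 (approximate SE 0.27). *Rps4x*, X-linked in the mouse, had 754, 969 and 1590, a ratio of 1.08 (approximate SE 0.29). *Rps7* had 479, 498 and 991, so that nearly all of its difference fell in the second interval.

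The stalk is the arm of the large subunit that recruits translation factors, and its genes did not move alike. *Rplp0*, the base of the stalk, had means of 855, 1150 and 1790 normalised counts, a BDL day 14 ratio of 1.07 (approximate SE 0.21) and the smallest within-group coefficient of variation of the 79 genes, about 19.1%. *Rplp1* had 1030, 1280 and 1090, and *Rplp2* had 523, 616 and 667, with ratios of 0.08 and 0.35. *Rplp0* was thus past 1.5-fold, while the partners that bind it as dimers were within 1 approximate SE of 0. *Rpl12*, at the foot of the stalk, had 938, 1180 and 1130.

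At the mRNA channel and the decoding centre 6 genes were measured, and 3 were past 1.5-fold at BDL day 14 with none lower. Besides *Rps2* they were *Rps3*, an entry channel protein at 693, 885 and 1220 normalised counts, and *Rps27a* at 492, 652 and 939, which is made as a fusion to ubiquitin. Past 1.5-fold higher were 21.2% of all genes kept and 32.4% of the other abundant genes. Differences between ribosomal regions were not tested. *Rps15*, at the decoding site, had 765, 765 and 913. Along the peptide exit tunnel 1 of 8 was past 1.5-fold, *Rpl4* at 871, 978 and 1530, whose loop lines the tunnel. *Rpl39*, a small tunnel protein, had 531, 521 and 503, the only gene here with its highest mean at day 0. *Rpl17*, *Rpl26*, *Rpl31* and *Rpl35*, around the exit, had ratios from 0.14 to 0.39.

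Proteins with known roles outside the ribosome showed the same mixture. Among 6 that bind MDM2 or belong to the 5S particle, 2 were past 1.5-fold at BDL day 14. The share past 1.5-fold higher was 21.2% over all genes kept and 32.4% over the other abundant genes. *Rpl5* had 534, 490 and 947 normalised counts, whereas *Rpl11*, its partner on the 5S RNA, had 867, 997 and 1100, log2 ratios of 0.83 (approximate SE 0.31) and 0.34 (approximate SE 0.40). The other was *Rps7*. Of 18 genes mutated in Diamond-Blackfan anaemia, an inherited failure of red cell production, 17 had a higher mean at BDL day 14, with a median of 0.36, and 4 were past 1.5-fold (*Rps19*, *Rpl5*, *Rps7* and *Rpl18*), a share near that of all genes kept.

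Paralogues of standard ribosomal proteins were low in every group. *Rpl22l1* had 74.0, 103 and 94.8 normalised counts beside 261, 281 and 313 for *Rpl22*. *Rpl7l1* had 54.9, 57.1 and 62.6 beside 874, 864 and 1190 for *Rpl7*, and *Rps27l*, a target of p53, had 57.3, 65.5 and 52.5 beside 650, 609 and 836 for *Rps27*. None of these 3 was past 1.5-fold in either comparison with day 0. *Rps4l* was left out because the table marks it as a transcribed processed pseudogene, and it is counted again among the pseudogenes described further on. It had 23.0, 24.4 and 8.88, a BDL day 14 ratio of -1.37 (approximate SE 0.33) beside 1.08 for *Rps4x*. Among all 7 parent genes 3 were past 1.5-fold at BDL day 14, *Rpl3*, *Rpl10* and *Rps4x*. Of the other abundant genes, 32.4% were past 1.5-fold higher, and of all genes kept 21.2%.

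The interval from BDL day 3 to BDL day 14 set these genes furthest from other abundant ones. Means were higher at BDL day 14 for 67 of the 79 genes (84.8%), with a median log2 ratio of 0.23, against 34.0% and a median of -0.22 among the 826 other genes with a mean of at least 100. Past 1.5-fold, 9 were higher (11.4%) and none lower, when 21.2% of all genes kept were higher and 19.7% lower, and 10.8% and 31.5% of the other abundant genes. The 9 were *Rps7*, *Rpl5*, *Rpl3*, *Rps6*, *Rps4x*, *Rpl30*, *Rpl4*, *Rplp0* and *Rps9*, with ratios from 0.59 to 0.99, and 8 genes were past both 1.5-fold and 2 approximate SE. That mark was passed by 10.5% of genes with a mean of at least 10 and by 79 of the 826 other abundant genes. *Rps6*, the substrate of the S6 kinases, had 745, 799 and 1330 normalised counts. The 3 comparisons share their group means, so their values are not independent.

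The BDL day 14 means may rest in part on a high library. The table gives the value of the highest library of each gene without naming it. From the group means, group sizes and geometric mean, that library could belong to BDL day 14 for 79 of 79 genes, against 75.2% of the genes with a mean of at least 10, and it could belong to no other group for 34 (43.0%), against 12.3%. BDL day 14 has the most libraries and held the highest mean for 67 of the 79 genes, against 31.4% of all genes kept. These shares therefore follow in part from the group means and cannot show that a library was unusual. For none of the 79 could the highest library be placed only at day 0 or only at BDL day 3. It stood at 1.34 to 1.79 times the BDL day 14 mean, with a median of 1.59, against 1.56 over genes with a mean of at least 10 and 1.60 over other abundant genes. Whether it was the same library in each gene cannot be read from the table.

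When the highest library was taken out of BDL day 14, the median log2 ratio to day 0 fell from 0.40 to 0.11, 47 of the 79 genes stayed above 0 and 9 stayed past 1.5-fold. This removal can only lower the group, and where the library may belong elsewhere it gives a lower limit. The 9 were *Rpl3* (0.92), *Rpl10a* (0.87), *Rplp0* (0.84), *Rps2* (0.83), *Rps4x* (0.80), *Rpl8* (0.70), *Rps27a* (0.68), *Rps7* (0.65) and *Rpl5* (0.62). Among the 826 other genes with a mean of at least 100, the removal was possible for 547, which had a median of 0.35 after it. Of those 547, 34.4% were past 1.5-fold higher, against 11.4% of the ribosomal protein genes. Before any removal the median of all 826 was 0.28. Genes low at BDL day 14 tend to drop out of the 547, whereas all 79 ribosomal protein genes stay. The sets are therefore not compared like for like. For the 34 genes whose highest library can only be from BDL day 14, the median went from 0.69 to 0.40, with 32 above 0, and those past 1.5-fold went from 24 to 8. From BDL day 3 to BDL day 14, taking the highest library out of the group with the higher mean moved the median from 0.23 to -0.045, a removal that pulls each gene towards or past 0 by construction. The relative spread within groups had a median of 34.8% over the genes and 26.0% over other abundant genes.

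The longer coding sequences had the larger ratios. Across the 79 genes the BDL day 14 ratio ranked with coding length (Spearman's rho 0.60), and with the highest library taken out rho was 0.58. At BDL day 3 rho was 0.39. With the length of the whole transcript it was 0.28, and with the day 0 level -0.09, both for BDL day 14. The points share the same libraries and differ in base composition and position of reads, so rho is given as a description. The median BDL day 14 ratio was 0.32 in the 27 genes of up to 400 coding bases, 0.40 in the 30 of over 400 and up to 600 and 0.74 in the 22 longer ones, with 3, 9 and 15 of them past 1.5-fold. Other protein-coding genes with a mean of at least 100 had medians of 0.04, 0.30 and 0.34 in the same length classes. Of these other genes, 13 of 75, 36 of 116 and 216 of 618 were past 1.5-fold higher. The share of ribosomal protein genes past 1.5-fold exceeded theirs only in the longest class, at 68.2%. In the short and middle classes it was 11.1% and 30.0%, below the share of the other genes. The part of fragment length or RNA quality in this was not tested.

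**Figure D3:**
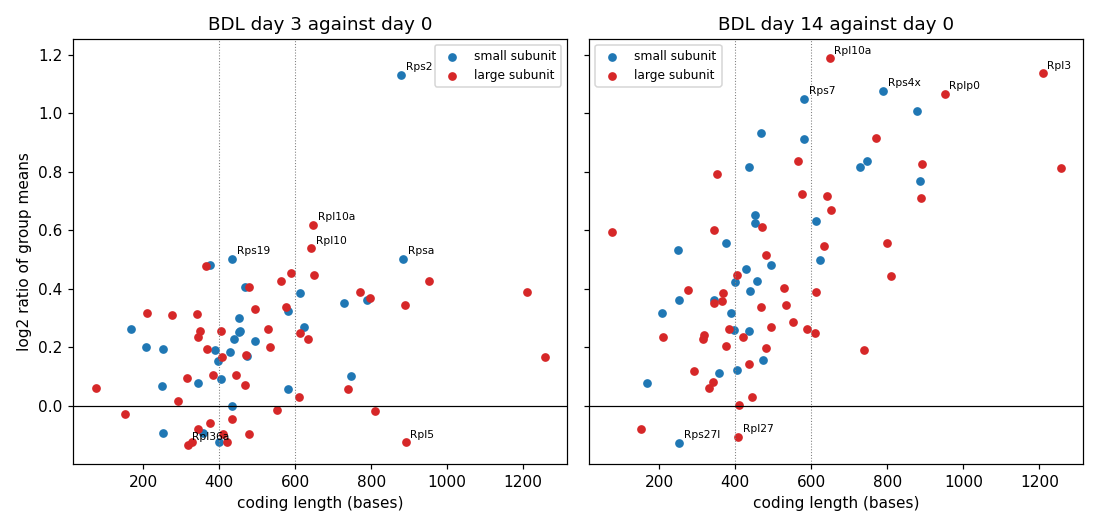
Log2 ratio to day 0 at BDL day 3 (left) and BDL day 14 (right) against coding length in bases for the 79 genes, coloured by subunit, with dotted lines at 400 and 600 bases. At BDL day 14 *Rpl10a*, *Rpl3*, *Rps4x* and *Rplp0*, all over 600 bases, lie at the top and *Rps27l* and *Rpl27* at the bottom, while at BDL day 3 *Rps2* lies alone above the rest.

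Levels per kilobase of transcript place the genes beside each other at day 0. The highest were *Rps29* at 2821, *Rplp1* at 2064, *Rps12* at 1929, *Rps27* at 1884 and *Rpl19* at 1864 normalised counts per kilobase. All 5 encode proteins whose BDL day 14 ratios were below the median of the set, from 0.08 to 0.36. Division by length favours short transcripts, and shorter coding sequences had the smaller ratios. The day 0 level itself, not divided by length, had a rho of -0.09 with the BDL day 14 ratio. *Rps20* and *Rps15a* are assigned long transcripts in the annotation used, which lowers their values on this scale.

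The naming rule leaves out 6 further ribosomal protein genes. *Rps3a1* had 700, 683 and 1340 normalised counts, and *Fau*, a ubiquitin-like fusion, had 665, 788 and 1020, with BDL day 14 ratios of 0.94 and 0.62. The lowest levels were those of *Rpl9-ps6* (20.5, 26.5 and 33.5) and *Rps27rt* (24.5 at day 0 and 28.4 at BDL day 14), below the genes inside the rule. All 6 had higher means at BDL day 14 than at day 0, 3 of them past 1.5-fold, when 21.2% of all genes kept were higher.

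Other mRNAs with a TOP tract had a larger median ratio at BDL day 14 than the ribosomal protein genes, a difference that was not tested. Of 18 measured, 17 had a higher mean and 11 were past 1.5-fold, with a median log2 ratio of 0.62, and at BDL day 3 the median was 0.23 with none past 1.5-fold. At BDL day 14, 21.2% of all genes kept and 32.4% of the other abundant genes were past 1.5-fold higher. At BDL day 3 these shares were 19.2% and 43.0%. *Eef1a1*, the elongation factor that delivers tRNA, had 5330, 6800 and 10300 normalised counts, and *Tpt1*, translationally controlled tumour protein, had 2470, 2370 and 3820. *Eef2*, which moves the ribosome along, had 813, 1130 and 1400, and *Rack1*, a scaffold on the small subunit, had 811, 1110 and 1500. The exception was *Eef1d*, at 132, 157 and 112.

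Factors that start translation and build ribosomes had higher medians at BDL day 3 than the ribosomal proteins, again with no test. Of 31 initiation factors, 10 were past 1.5-fold higher at BDL day 3 and 14 at BDL day 14, with 2 lower at each time, and medians of 0.37 and 0.54. *Eif4a1*, the helicase of the cap complex, had 347, 664 and 715 normalised counts, and *Eif4a2*, its paralogue, had 150, 68.5 and 47.3. *Eif6*, which keeps unfinished large subunits apart from small ones, had 26.1, 67.3 and 67.4. Among 43 ribosome biogenesis genes 21 were past 1.5-fold higher and none lower at BDL day 3, with a median of 0.57, and 16 were higher and 3 lower at BDL day 14, with a median of 0.44. *Pes1*, needed for the large subunit RNA, had 49.9, 106 and 101. *Ncl*, nucleolin, the most abundant of them, had 208, 197 and 286. The biogenesis genes thus had their larger median at BDL day 3, when the ribosomal proteins themselves lay at 0.20. As background for the BDL day 3 counts, 19.2% of all genes kept were past 1.5-fold higher and 29.2% lower. For the later group these shares were 21.2% and 28.8%. Among other abundant genes the higher share was 43.0%, then 32.4%. The median day 0 level was 66.9 for the initiation factors and 15.7 for the biogenesis genes, below the mean of 100 that counts as abundant.

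Genes of mTORC1 and LARP1 showed no common direction at BDL day 14. Of 17, 3 were past 1.5-fold higher and 1 lower, with a median of -0.04. Over all genes kept 21.2% were higher and 28.8% lower. *Mtor* had 11.1, 19.5 and 16.6 normalised counts and *Larp1* 35.1, 44.0 and 31.2, values that do not report the activity of the proteins. The 78 mitochondrial ribosomal protein genes, which serve a separate ribosome, had medians of 0.37 and 0.14 at BDL day 3 and BDL day 14, with 21 higher and 2 lower, then 14 higher and 8 lower past 1.5-fold. At BDL day 3, 19.2% of all genes kept were higher and 29.2% lower. The mitochondrial ribosomal protein genes had their higher median at BDL day 3, the reverse of the cytosolic set. A list of 11 housekeeping genes had medians of 0.37 and 0.15.

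**Figure D4:**
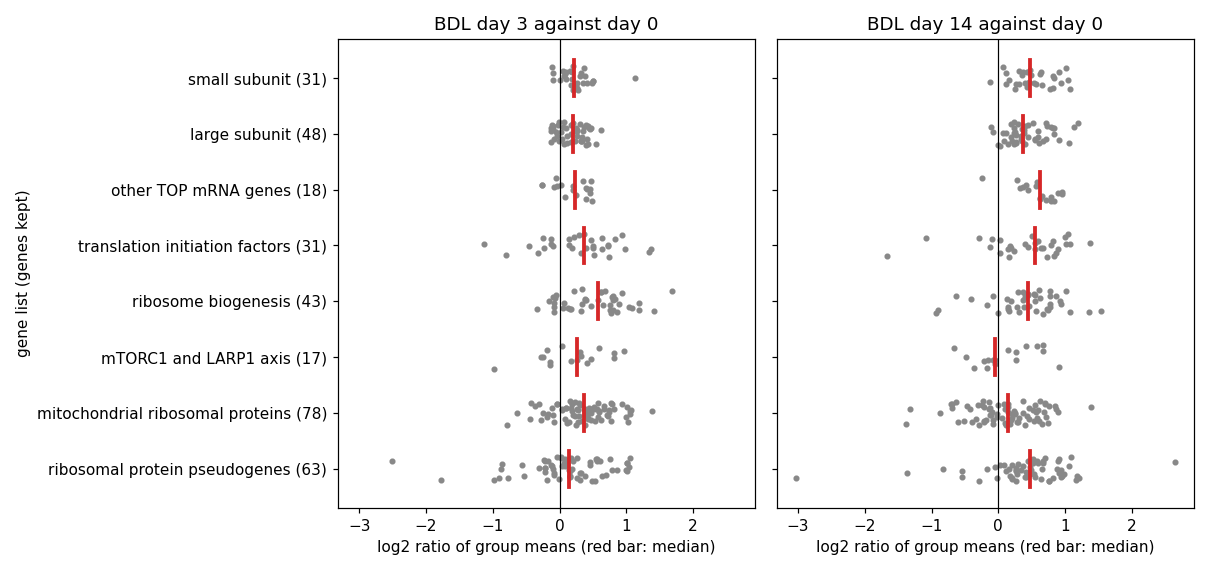
Log2 ratio to day 0 at BDL day 3 (left) and BDL day 14 (right) for each kept gene of 8 lists (grey points, spread vertically for sight), with the median as a red bar. The cytosolic ribosomal proteins form a narrow band with medians of 0.22 and 0.20 on the left and 0.48 and 0.37 on the right, while biogenesis, initiation and mitochondrial ribosomal genes spread over a wider range.

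Reads of a ribosomal protein mRNA can also align to its processed pseudogenes, so the split between them is uncertain. The table lists 109 pseudogenes named after 52 of the 80 genes, and 58 of them passed the filter. Summed over the pseudogenes of a gene, their level at day 0 had a median of 1.28% of the gene's own and reached 23.5%, in *Rps2*. For that gene the pseudogene level was 23.5%, 6.57% and 10.0% of its own in the order of the groups. Most of it was *Rps2-ps13*, at 126, 67.0 and 103 normalised counts with 411 in its highest library. That value is more than all libraries of day 0, or of BDL day 3, hold together. The library thus belongs to BDL day 14 and makes up nearly all of the *Rps2-ps13* level there. The 10.0% at BDL day 14 therefore rests largely on a single library. The part of reads passing between *Rps2* and its pseudogenes in the *Rps2* ratios was not tested. For 6 pseudogenes, 4 of *Rpl35a* and 2 of *Rps19*, values were identical within each family, as happens where reads are shared between copies. Over all 115 ribosomal protein pseudogenes 63 were kept, with medians of 0.15 and 0.48, close to those of the genes.

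Marker genes of several cell types differed in level between the groups, and every ratio above is taken over all sorted cells. Summed over 8 macrophage markers the level was 6664, 11879 and 17442 normalised counts in the order of the groups, of which *Lyz2* made up 2280, 4560 and 11200. The list as a whole did not follow *Lyz2*: relative to day 0, 7 of the 8 were past 1.5-fold higher at BDL day 3 and 2 at BDL day 14, with a median log2 ratio of 0.24 at BDL day 14, and from BDL day 3 to BDL day 14 the median was -0.60, with 4 lower and 1 higher. The 5 Kupffer cell markers summed to 9212, 20869 and 1278, and all 5 were past 1.5-fold lower at BDL day 14. The 5 erythroid markers summed to 74530, 7729 and 4483, and the 8 hepatocyte markers to 3607, 1002 and 408, all lower past 1.5-fold at BDL day 14. For cholangiocytes, the lineage under study, the 8 markers summed to 519, 205 and 833, of which *Spp1* made up 459, 175 and 792. *Krt19* was at 21.5, 12.7 and 14.3, *Epcam* at 12.9, 4.97 and 7.69, and *Cftr* at 1.56, 0.589 and 0.582. Of the 7 cholangiocyte markers kept, 6 were past 1.5-fold lower than day 0 and 0 higher at BDL day 3. At BDL day 14, 4 were lower and 2 higher. From BDL day 3 to BDL day 14, 4 were higher and 0 lower, with a median log2 ratio of 0.63. The median level of these markers was 10.9, 4.97 and 7.69 in the order of the groups. For the macrophage markers it was 481.5, 870.5 and 544. The 6 sinusoidal endothelial markers summed to 882, 561 and 863. The 7 mesenchymal markers summed to 1027, 19.9 and 93.6. T and NK cell markers summed to 107, 31.2 and 9.21, B cell markers to 366, 87.0 and 55.4, and neutrophil markers to 463, 208 and 126. The 6 proliferation markers summed to 130, 128 and 143. The table lists no gene at 0, and the neutrophil marker *Ly6g*, at 0.0610, stood at the lowest mean of its group at BDL day 14. In such bulk samples, fewer cells of a type and less RNA per cell cannot be told apart, and the part of these cell types in the ribosomal protein ratios was not tested.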

How the data were processed

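Total RNA of sorted GFP+ cells was sequenced as poly(A) libraries on an Illumina NextSeq. The authors trimmed reads, aligned and counted them with STAR on mm10 with a GENCODE annotation, and normalised by the upper quartile in Partek Flow (the submitters' processing notes name STAR 2.6.1d). The deposited signal is a normalised count per gene, given as 3 group means and as the arithmetic mean, geometric mean, total and highest value over 10 libraries. The table has no column of a single library. Its columns of the authors' comparisons (p-values, FDR, fold changes and their limits) were not used. Raw depth per library is unknown. With group sizes of 3, 3 and 4 the group means gave the deposited arithmetic mean within 0.469% at the 99th percentile of genes.

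Genes with a summed normalised count of at least 10 were kept (12891 of 16971). Ratios are log2 of group means with pseudocount 0, described as past 1.5-fold with no test. The within-group spread was estimated for means of at least 10 from the arithmetic and geometric means with 7 degrees of freedom; it and the placing of the highest library (0.5% allowed for rounding) were added after the columns were seen, as were the length classes and the comparison with genes of mean 100 or more. The spread estimate and the placing were tested on simulated data with 1 relative spread per gene in all groups. Such data cannot show how they behave where the spread differs between groups. Lengths are of the principal GENCODE M21 transcript, whose gene starts equalled those in the table for all 80 genes; gene ends were 1 base less and are given as annotated. Promoter sequences are RefSeq's on GRCm38.p6. Genes described in full were the 5 highest and lowest ratios to day 0, all paralogues and parents, the stalk genes, the 5 highest levels per kilobase and those past 1.5-fold, the last by values or by name. Genes from other lists were drawn from those past 1.5-fold and the 2 most abundant, and a few more were named after their values were seen. The members and all lists, markers included, were chosen with earlier results of these data known. Python 3.11.15, numpy 2.4.6, pandas 2.3.3, scipy 1.17.1 and matplotlib 3.10.9 were used.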

Additional observations from a re-analysis of the deposited data

How the results depend on the processing

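The ratios changed most with the scaling and with the highest library; pseudocounts of 1 and 0.1 and a mean filter of 10 changed no direction of a median for the ribosomal protein genes. Under quantile normalisation the median log2 ratio of the genes at BDL day 3 against day 0 was -0.21, with 1 gene past 1.5-fold higher and 1 lower (2 and 0 in the report). At BDL day 14 against day 0 it left 12 higher in place of 27, and at BDL day 14 against BDL day 3 it gave 25 in place of 9. It also turned the BDL day 3 medians of the other TOP mRNA genes to -0.075 and of the ribosomal protein genes outside the naming rule to -0.19, and the BDL day 14 median of the mTORC1 and LARP1 genes to 0.22. With each group scaled to the same sum, 7, 57 and 21 genes were past 1.5-fold higher in the comparisons of BDL day 3 with day 0, BDL day 14 with day 0 and BDL day 14 with BDL day 3, the median of all genes kept moved by over 0.1 in each (to 0.11, 0.29 and 0.19), and the mTORC1 and LARP1 median at BDL day 14 was 0.28. Without the 10 highest genes in that sum, 1 gene was past 1.5-fold at BDL day 3 and 24 from BDL day 3 to BDL day 14, the mTORC1 and LARP1 median was 0.063, and the share of the genes at day 0 was 8.36%. A 2-fold threshold left 1, 6 and 0 genes higher in the same order, and without the filter *Rpl3l* counted as 1 gene lower from BDL day 3 to BDL day 14.

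With the highest library of each gene taken out of the group with the higher mean, 7 genes were past 1.5-fold higher and 8 lower at BDL day 3 against day 0, 9 were higher at BDL day 14 against day 0, and 2 were higher at BDL day 14 against BDL day 3, where the median turned to -0.045. This takes a value from the higher group of every gene that allows it, so it can turn small differences around by construction. For the other changes the cause was not tested. The precision that sequencing depth sets could not be given. No paired analysis was possible because the table holds group means and no separate libraries.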
